A study of Mus musculus with 6 samples.

Results

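The genes described here are the H3K27 demethylases, the KMT2 methyltransferases of H3K4 and the core subunits that those methyltransferases share, in mouse neural stem cells with and without a Bmi1 transgene. They are 10 genes named by their role and not by their values: Kdm6a, Kdm6b, Kmt2a, Kmt2b, Kmt2c, Kmt2d, Men1, Wdr5, Ash2l and Rbbp5, of 50686 genes in the count files. Each was found once by its symbol, and all 10 were among the 15521 genes with enough reads to be tested. Neural stem cells (NSC) were derived from wild-type embryos at E16.5, and the NSC Bmi1Over cultures were derived at the same age from STOPFloxBmi1;NestinCre embryos. In those embryos the Nestin promoter drives Cre in neural precursors, and Cre removes a stop cassette that lies before the Bmi1 transgene. RNASeq was available for 2 cultures of each genotype, described as biologically independent, and ChIPSeq for trimethylated lysine 27 of histone H3 (H3K27me3) for 1 library of each genotype, the one that the authors retained of 2 after their checks of library quality. The number of embryos behind a culture, and whether the cells of a given library grew as spheres or attached, were not given in the sources used here.

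Methylation of lysine 27 by the Polycomb repressive complex PRC2 marks repressed genes, and the Jumonji-domain enzymes Kdm6a (also called Utx) and Kdm6b (Jmjd3) remove it. The Trithorax group opposes Polycomb: its KMT2 enzymes methylate lysine 4 of histone H3 at promoters and enhancers of active genes. Each KMT2 enzyme works on a shared core of Wdr5, Rbbp5, Ash2l and Dpy30, and Kdm6a itself sits in the complexes built around Kmt2c and Kmt2d. In developing brain Kdm6b is known for clearing H3K27me3 from neuronal genes, and Kmt2a for keeping neurogenic genes active in postnatal neural stem cells.

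The comparison asked whether the transcripts that encode these opponents of Polycomb differ in cells meant to overexpress Bmi1, the Polycomb Repressive Complex 1 component. Bmi1 itself was checked first. It was measured at 133.3 and 123.5 CPM (counts-per-million reads, scaled for library composition) in the NSC cultures and at 118.6 and 112.6 CPM in the cultures of the other genotype, a log2 fold change of -0.15 with an adjusted p = 0.463 by edgeR (quasi-likelihood F-test, p adjusted after Benjamini and Hochberg). The label was therefore not borne out by the reads on the Bmi1 gene, although whether transcripts of the transgene are counted on that gene is not given in the sources used here, and the second group is called the libraries labelled NSC Bmi1Over. Reads assigned to genes ranged from 18112100 to 61353076 per library, and both extremes were libraries labelled NSC Bmi1Over. Unmapped reads made up 11.2% and 13.7% of the NSC libraries and 16.2% and 17.6% of the libraries labelled NSC Bmi1Over, so that this measure of library quality moved with genotype. The 7 neural stem cell markers examined were all expressed and summed to 4225 and 4510 CPM in NSC, compared with 4044 and 3707 CPM in the libraries labelled NSC Bmi1Over. None passed the test, and 6 of the 7 had a log2 fold change below 0, with a median of -0.25 and the lowest value of -0.42 for Sox2. Among markers of other cells, the 5 neuronal genes summed to 51.6 and 67.2 CPM in NSC and to 93.1 and 138.0 CPM in the libraries labelled NSC Bmi1Over. That rise was Syt1 alone, at 9.13 and 27.2 CPM against 66.5 and 95.8 CPM, the neuronal gene that passed the test; of the other 4, Tubb3, Dcx and Snap25 had values below 0. The 4 astrocyte genes summed to 140.4 and 110.5 CPM against 84.6 and 65.0 CPM, of which Aldh1l1 alone, at 122.2 and 94.2 CPM against 66.0 and 53.3 CPM, passed the test and made up nearly all of the difference. Every mesenchymal, microglial, endothelial and erythroid marker stayed at or below 2.96 CPM. The 4 oligodendrocyte genes summed to 11.9 and 10.2 CPM in NSC, compared with 8.11 and 15.6 CPM in the others, and within the libraries labelled NSC Bmi1Over Sox10 stood at 0.286 CPM in replicate 1 and 4.64 CPM in replicate 2. The part of these differences, that in unmapped reads included, in the results below was not tested, and in bulk RNA fewer cells of a type and less RNA per cell cannot be told apart.

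H3K27me3 peaks were absent from the windows of 5 kb to either side of the annotated transcription start sites of all 10 genes and from their gene bodies, both in NSC and in the library labelled NSC Bmi1Over. Of the 13325 protein-coding genes tested for expression, 7.83% had such a promoter peak in the NSC list and 3.32% in the list labelled NSC Bmi1Over. Among the 4379 genes expressed within the same range of levels as the 10 genes, the shares were 3.29% and 1.19%, so that 0 of 10 is near the background at these levels. The peaks are broad regions called by the authors separately in each of the 2 libraries, 12982 regions covering 11.54 Mb in NSC and 6810 regions covering 4.81 Mb in the other, and with 1 library of each no replicate error can be given. The lowest enrichment listed was 3.52-fold in the first list and 4.03-fold in the second, so that weaker enrichment than this does not appear in them.

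The sequences around the start sites are shown for Kdm6a, the member whose start lies nearest to a peak in both lists, and for Kmt2c and Kmt2d, the pair of related methyltransferases with the lowest and the highest fold change below. They run 5′ to 3′ on the strand of the gene, from 250 bases before the start site to 50 bases after it, as given by RefSeq on GRCm38.p6, and capitals mark CG dinucleotides, which the CXXC domains of Kmt2a and Kmt2b are known to bind when unmethylated. Kdm6a is at chrX:18162325-18162624 on the plus strand, Kmt2c at chr5:25498734-25499033 on the minus strand and Kmt2d at chr15:98871156-98871455 on the minus strand.
Kdm6a: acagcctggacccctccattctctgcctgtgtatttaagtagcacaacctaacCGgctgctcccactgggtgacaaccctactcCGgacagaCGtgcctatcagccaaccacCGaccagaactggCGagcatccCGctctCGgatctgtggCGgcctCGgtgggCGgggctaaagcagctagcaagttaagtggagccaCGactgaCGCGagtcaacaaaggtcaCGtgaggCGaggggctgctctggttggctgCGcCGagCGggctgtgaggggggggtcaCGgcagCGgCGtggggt
Kmt2c: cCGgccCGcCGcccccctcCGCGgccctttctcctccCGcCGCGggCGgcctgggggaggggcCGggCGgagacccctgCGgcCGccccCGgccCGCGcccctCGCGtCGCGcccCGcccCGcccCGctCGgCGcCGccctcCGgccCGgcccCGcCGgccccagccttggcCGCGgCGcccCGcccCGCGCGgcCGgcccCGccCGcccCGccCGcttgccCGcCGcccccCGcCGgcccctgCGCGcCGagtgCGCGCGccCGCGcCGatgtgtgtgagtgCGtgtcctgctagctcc
Kmt2d: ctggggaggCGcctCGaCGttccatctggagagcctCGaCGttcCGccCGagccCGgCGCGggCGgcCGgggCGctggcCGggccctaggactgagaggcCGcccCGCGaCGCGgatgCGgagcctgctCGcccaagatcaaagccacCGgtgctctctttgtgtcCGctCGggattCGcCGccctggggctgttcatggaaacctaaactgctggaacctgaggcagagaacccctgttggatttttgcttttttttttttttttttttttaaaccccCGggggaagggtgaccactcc

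The Kdm6a window held 21 CG dinucleotides, the Kmt2c window 56 and the Kmt2d window 27. Across all 32851 RefSeq windows of this length the median was 7, and 24.8%, 0.195% and 15.5% of them held at least as many as Kdm6a, Kmt2c and Kmt2d. RefSeq windows were matched for 7 of the 10 genes. Those of Kmt2a, Wdr5 and Rbbp5 held 36, 22 and 16, and the 3 windows of Men1 held 11, 16 and 16, so that every window examined lay above the median. As many as in the windows of Rbbp5 and Men1 were held by 33.0% and by 33.0% to 41.4% of all windows.

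The nearest peak to any start site of Kdm6a lay 18.3 kb away in NSC and 9.5 kb away in the library labelled NSC Bmi1Over, both upstream of the gene. The first was a region of 344 bp (chrX:18143959-18144302) with 3.93-fold enrichment and a −log10 q-value of 2.49, and the second a region of 200 bp (chrX:18152844-18153043) with 4.06-fold enrichment and a −log10 q-value of 2.01. They did not overlap each other, and the second was near the lowest values listed in its file. For Kdm6b the nearest peak lay at 35.5 kb in NSC and at 207.4 kb in the other list. Among the methyltransferases the distances were 90.2 and 92.1 kb for Kmt2a, 43.2 and 104.6 kb for Kmt2b, 550.6 and 752.3 kb for Kmt2c and 33.9 and 40.0 kb for Kmt2d. Among the core subunits and Men1, Rbbp5 lay nearest with 28.8 and 20.8 kb and Ash2l farthest with 559.4 and 2412.4 kb. Measured from the start of the gene, the median distance of the 10 genes was 76.9 kb in NSC and 169.7 kb in the library labelled NSC Bmi1Over, against 213.8 and 486.8 kb over all protein-coding genes tested. The list labelled NSC Bmi1Over holds fewer regions, and 8 of the 10 genes had their nearest region farther away there, Kdm6a and Rbbp5 being the exceptions.

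**Figure D1:**
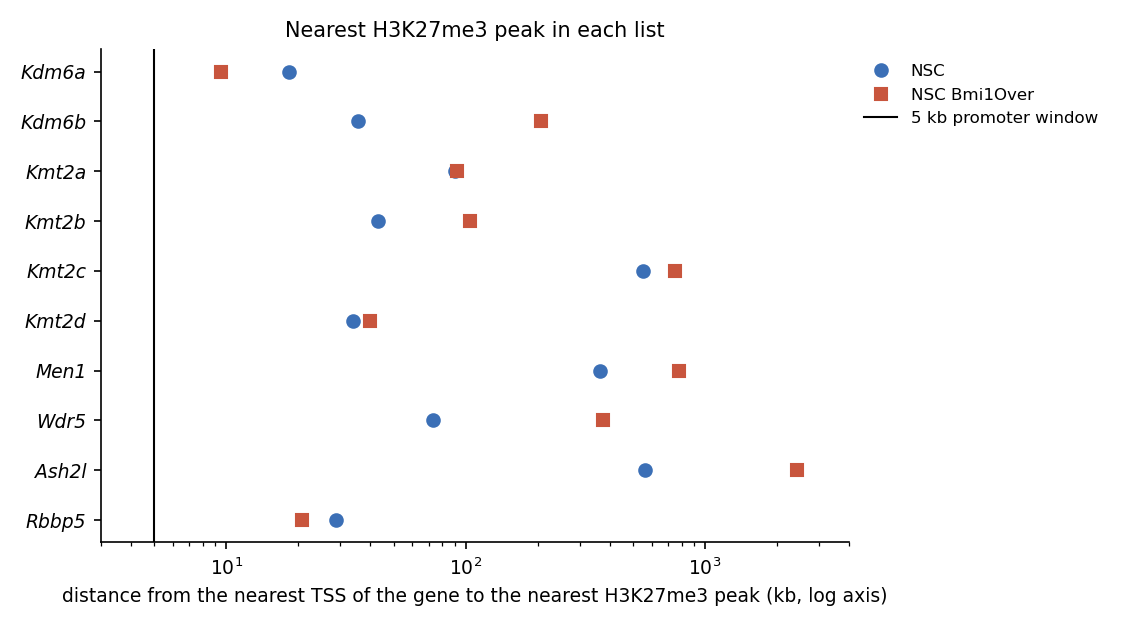
Distance in kb (log axis) from the nearest annotated transcription start site of each of the 10 genes to the nearest broad H3K27me3 peak, for the NSC list and the list labelled NSC Bmi1Over, with 1 library each and the 5 kb promoter limit drawn as a line. Every point lies beyond the line, from 9.5 kb for Kdm6a to 2412.4 kb for Ash2l in the list labelled NSC Bmi1Over.

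All 10 genes were expressed at moderate levels in both genotypes. On the scale of reads per kilobase of merged exons scaled to library size (RPKM), the only one used here to compare levels between genes, the NSC means ran from 7.19 for Kdm6a to 25.5 for Men1, which put them between the 55.1 and 86.5 percentiles of the tested protein-coding genes. The median gene was at 6.01 RPKM. In NSC the order of mean RPKM was Men1 at 25.5, Wdr5 at 20.7, Kmt2a at 16.8, Kmt2b at 15.2, Rbbp5 at 13.7, Kdm6b at 13.6, Kmt2c at 10.9, Ash2l at 10.1, Kmt2d at 9.18 and Kdm6a at 7.19. Every value of Men1 lay above every value of Wdr5, and the same held for Wdr5 over Kmt2a, Kdm6b over Kmt2c and Kmt2d over Kdm6a. The ranges of the other neighbours in this order overlapped, so that they did not differ beyond their spread. In the libraries labelled NSC Bmi1Over the order was Men1 at 26.9, Kmt2b at 19.5, Wdr5 at 18.6, Kmt2a at 18.1, Rbbp5 at 13.3, Kmt2d at 12.3, Kdm6b at 11.1, Ash2l at 8.58, Kmt2c at 8.32 and Kdm6a at 6.59. There the separations between neighbours beyond the spread were those of Men1 from Kmt2b, of Kmt2a from Rbbp5 and of Kmt2c from Kdm6a. Men1 was thus the highest and, with merged exon length, Kdm6a the lowest of the 10 in both genotypes. The order depends on the length used: with the longest transcript in place of merged exons, 6 of the 10 took another rank in NSC and 7 in the libraries labelled NSC Bmi1Over, and Ash2l moved from rank 8 to rank 3 in NSC and from rank 8 to rank 4 in the others. Men1 remained first, but Kmt2d then had the lowest mean in NSC, at 9.23 RPKM against 10.2 RPKM for Kdm6a. The ranges of these genes overlapped, with 8.16 and 10.3 RPKM for Kmt2d and 10.4 and 9.88 RPKM for Kdm6a.

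**Figure D2:**
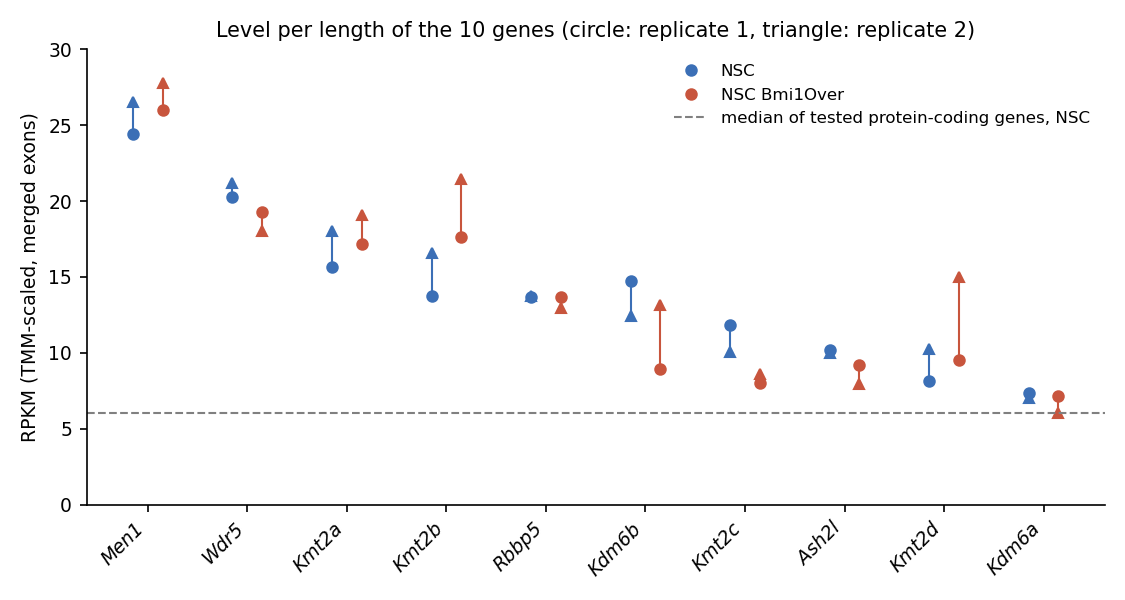
RPKM (reads per kilobase of merged exons scaled to library size) of the 10 genes in each of the 4 libraries. The 2 libraries of a genotype are joined by a line, and the dashed line is the median of the tested protein-coding genes in NSC. With merged exon length Men1 is highest and Kdm6a lowest in both genotypes, and most neighbours overlap.

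None of the 10 transcripts passed the threshold for a difference between the genotypes in the edgeR quasi-likelihood test with Benjamini-Hochberg adjustment over all 15521 genes (0 of 10 at adjusted p under 0.05), where 2.15% of all genes tested did, 2.03% upward and 0.122% downward in the libraries labelled NSC Bmi1Over. By DESeq2 the count was also 0, beside 9.64% of all genes. Without adjustment, 2 of the 10 had p under 0.05 by edgeR, Kmt2b and Kmt2c, beside 24.2% of all genes, and 3 by DESeq2, beside 3074 of 15521. The mean level was higher in the libraries labelled NSC Bmi1Over for 4 of the 10 genes and lower for 6, with a median log2 fold change of -0.09 against -0.01 over all genes tested. The members' median was -0.0084 without replicate 2 of the libraries labelled NSC Bmi1Over. CPM values of the groups did not overlap for 5 of the 10, 1 higher and 4 lower, beside 59% of all genes (29% higher and 30% lower), so that the share was near the background. With 2 cultures against 2, an exact permutation test of a single gene cannot give a two-sided p below 0.333.

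**Figure D3:**
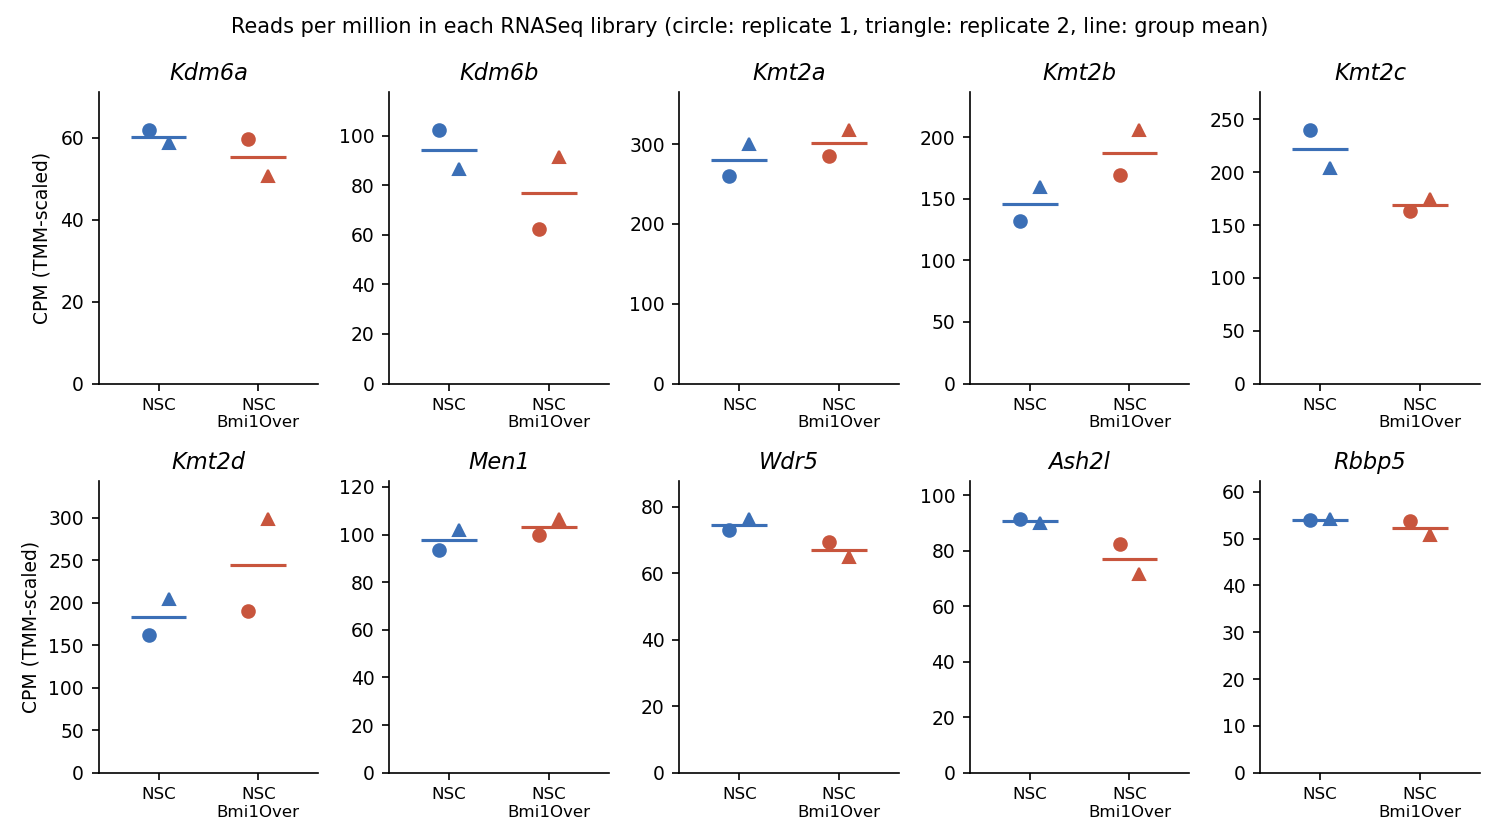
CPM of each of the 10 genes in the 4 libraries, with the mean of each genotype as a bar (n = 2 cultures). Kmt2b is the gene with both libraries labelled NSC Bmi1Over above both NSC libraries, and Kmt2c, Wdr5, Ash2l and Rbbp5 are those with both below.

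Kdm6a encodes the X-linked H3K27 demethylase and lies on the plus strand at chrX:18162575-18279936 (mm10). Its level was 61.9 and 58.6 CPM in NSC, from 1953 and 1482 reads, and 59.8 and 50.7 CPM in the libraries labelled NSC Bmi1Over, from 1047 and 2900 reads. Replicate 1 of the libraries labelled NSC Bmi1Over lay between the NSC cultures, so that the groups overlapped. The means were 60.3 ± 2.31 and 55.3 ± 6.41 CPM (SD, n = 2), with a log2 fold change of -0.13 ± 0.13 (SE) and an adjusted p = 0.561 by edgeR, and the 95% interval of the log2 difference ran from -0.42 to 0.17. With any 1 library left out the value lay between -0.25 and -0.0099. Its Y-linked relative Uty had no reads in any of the 4 libraries.

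Kdm6b encodes the second demethylase, known as one that signals induce, and lies on the minus strand at chr11:69398508-69413675. NSC cultures gave 102.3 and 86.4 CPM, from 3228 and 2185 reads, and the libraries labelled NSC Bmi1Over gave 62.2 and 91.6 CPM, from 1088 and 5233 reads. The lowest of the 4 values belonged to replicate 1 of the libraries labelled NSC Bmi1Over, while replicate 2 lay between the NSC cultures. The log2 fold change was -0.29 ± 0.19 (SE) with an adjusted p = 0.361 by edgeR and a 95% interval from -0.72 to 0.14. It moved with each of these libraries: without replicate 1 of the libraries labelled NSC Bmi1Over it was -0.05, and without replicate 2 it was -0.60, neither past the threshold. The cultures of the libraries labelled NSC Bmi1Over differed from each other by 0.56 on the log2 scale and those of NSC by -0.24 (replicate 2 minus replicate 1). The gene Kdm6bos on the opposite strand overlaps 4.11% of its exon length, and counting without regard to strand leaves out reads that fall on both genes. Such overlaps were also annotated for 2.27% of the exon length of Kmt2a and 1.35% of that of Kmt2c, and for none of the other members.

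The balance between the demethylases also followed that library. The ratio of Kdm6a to Kdm6b on the RPKM scale was 0.502 and 0.563 in NSC, against 0.798 and 0.460 in the libraries labelled NSC Bmi1Over, and the values of the groups overlapped. Kdm6b was thus the higher in every library with merged exon length, but with the longest transcript the order turned in replicate 1 of the libraries labelled NSC Bmi1Over, at 10.1 RPKM for Kdm6a and 9.34 RPKM for Kdm6b. Ezh2, the main PRC2 methyltransferase that the demethylases counteract, stood at 127.9 and 129.5 CPM in NSC and at 129.4 and 116.6 CPM in the libraries labelled NSC Bmi1Over (adjusted p = 0.764 by edgeR). Per length, the ratio of Ezh2 to Kdm6a was 2.59 and 2.77 in NSC, against 2.72 and 2.88 in the others, while that of Ezh2 to Kdm6b was 1.30 and 1.56 in NSC, against 2.17 and 1.33 in the others. With merged exon length Ezh2 thus exceeded both demethylases in all 4 libraries, by a larger ratio for Kdm6a in each of them.

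The genes most like the demethylases in their pattern over the 4 libraries were sought by the root mean square difference of log2 CPM after centring, over 9541 protein-coding genes. For Kdm6a they were Pafah1b2, Capns1 and Gpn2 at differences of 0.00711, 0.00737 and 0.00851. A profile like that of Kdm6a was common, since 731 genes lay within 0.05 of it. For Kdm6b they were Brinp3, Mn1 and Ptprt at 0.037, 0.0387 and 0.0392, and 4 genes lay within 0.05.

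Kmt2a encodes the methyltransferase also named Mll, fused to other genes in leukaemia, and lies on the minus strand at chr9:44803355-44881296. Transcript levels were 260.4 and 300.7 CPM in NSC, compared with 285.7 and 317.7 CPM in the libraries labelled NSC Bmi1Over, from 5002 to 18157 reads. The groups overlapped, and the log2 fold change was 0.11 ± 0.15 (SE) with an adjusted p = 0.686 by edgeR and a 95% interval from -0.24 to 0.45. Scaling by library size alone gave -0.04, a shift shared by all genes, whose median moved by -0.15. With any 1 library left out the value lay between 0.0033 and 0.21. Kmt2b encodes its closest relative, known for methylation at promoters of developmental genes, and lies on the minus strand at chr7:30568858-30588726. It was measured at 132.0 and 159.3 CPM in NSC, from 4166 and 4026 reads, and at 169.1 and 205.9 CPM in the libraries labelled NSC Bmi1Over, from 2960 and 11768 reads. Both libraries labelled NSC Bmi1Over lay above both NSC cultures, and the means were 145.6 ± 19.3 and 187.5 ± 26.1 CPM (SD, n = 2). The log2 fold change was 0.37 ± 0.16 (SE) with a 95% interval from 0.0095 to 0.72, and it did not pass the threshold after adjustment by edgeR (adjusted p = 0.197). Leaving out any 1 library put it between 0.22 (without replicate 2 of the libraries labelled NSC Bmi1Over) and 0.50. The ratio of Kmt2a to Kmt2b on the RPKM scale was 1.14 and 1.09 in NSC, against 0.973 and 0.888 in the libraries labelled NSC Bmi1Over, lower in both of the latter than in either NSC culture. Which of the pair was the higher in NSC depended on the length used, since with the longest transcript the means were 17.0 RPKM for Kmt2a and 17.2 RPKM for Kmt2b.

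Kmt2c and Kmt2d encode a pair of very large methyltransferases, known for monomethylation of enhancers in complexes that hold Kdm6a. Kmt2c lies on the minus strand at chr5:25271798-25498783. It was measured at 240.0 and 203.7 CPM in NSC, from 7574 and 5149 reads, and at 163.0 and 174.7 CPM in the libraries labelled NSC Bmi1Over, from 2853 and 9983 reads. Both libraries labelled NSC Bmi1Over lay below both NSC cultures, with means of 221.8 ± 25.7 and 168.8 ± 8.29 CPM (SD, n = 2). The log2 fold change of -0.39 ± 0.14 (SE) was the lowest of the 10 in this fit, with a 95% interval from -0.72 to -0.07, and it too did not pass the threshold after adjustment by edgeR (adjusted p = 0.144). Leaving out any 1 library kept it between -0.51 and -0.27. Without replicate 2 of the libraries labelled NSC Bmi1Over, Kdm6b was the lower at -0.60 against -0.44 for Kmt2c. With the correction for GC content and length given below, it was also the lower, at -0.50 against -0.45.

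Kmt2d lies on the minus strand at chr15:98831669-98871204. It was measured at 161.7 and 204.4 CPM in NSC, from 5104 and 5166 reads, and at 190.1 and 298.4 CPM in the libraries labelled NSC Bmi1Over, from 3328 and 17050 reads. Replicate 2 of the libraries labelled NSC Bmi1Over stood above the other 3, while replicate 1 lay between the NSC cultures, so that the groups overlapped. The log2 fold change of 0.42 ± 0.22 (SE) was the highest of the 10, with a 95% interval from -0.08 to 0.92 and an adjusted p = 0.276 by edgeR. It depended on replicate 2: without that library it was 0.06, and without replicate 1 it was 0.70 with an adjusted p = 0.0282 by edgeR. That last fit has 1 library in an arm, assumed to vary like the NSC pair, and called 15.6% of all genes. The ratio of Kmt2c to Kmt2d on the RPKM scale was 1.46 and 0.979 in NSC, against 0.842 and 0.575 in the libraries labelled NSC Bmi1Over. The ratio was lower in both libraries labelled NSC Bmi1Over than in either NSC culture, and within each genotype replicate 2 had the lower value.

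Men1 encodes menin, the tumour suppressor that binds Kmt2a and Kmt2b, and lies on the plus strand at chr19:6334979-6340891. It was measured at 93.6 and 101.7 CPM in NSC and at 99.8 and 106.4 CPM in the libraries labelled NSC Bmi1Over. The groups overlapped, and the log2 fold change was 0.08 ± 0.12 (SE) with an adjusted p = 0.711 by edgeR and a 95% interval from -0.20 to 0.36. Scaling by library size alone gave -0.07, again by the shift common to all genes, and leaving out any 1 library gave 0.018 to 0.14.

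Among the members, the core subunits Wdr5, Ash2l and Rbbp5 had the narrowest spread between cultures in NSC. This did not hold for all of them in the libraries labelled NSC Bmi1Over. There Ash2l differed by -0.20 on the log2 scale (replicate 2 minus replicate 1), Wdr5 by -0.099 and Rbbp5 by -0.078, against 0.093 for Men1. Wdr5 (chr2:27515157-27536535), the β-propeller protein that holds the enzyme to the core, was measured at 73.0 and 76.2 CPM in NSC and at 69.3 and 64.7 CPM in the libraries labelled NSC Bmi1Over. Ash2l (chr8:25815996-25847694), which with Rbbp5 stimulates the catalytic domain, was measured at 91.3 and 89.8 CPM in NSC and at 82.4 and 71.5 CPM in the others. Rbbp5 (chr1:132477365-132505659) was measured at 53.9 and 54.1 CPM in NSC and at 53.7 and 50.9 CPM in the others. All 3 were lower in both libraries labelled NSC Bmi1Over than in either NSC culture, the margin for Rbbp5 being small, as were 30% of all genes tested. None passed the threshold by edgeR: the log2 fold changes were -0.16 for Wdr5 (adjusted p = 0.438), -0.24 for Ash2l (adjusted p = 0.283) and -0.05 for Rbbp5 (adjusted p = 0.82). Their 95% intervals ran from -0.43 to 0.12, from -0.52 to 0.05 and from -0.31 to 0.22. Without replicate 2 of the libraries labelled NSC Bmi1Over the values were -0.14 for Ash2l and -0.0068 for Rbbp5.

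**Figure D4:**
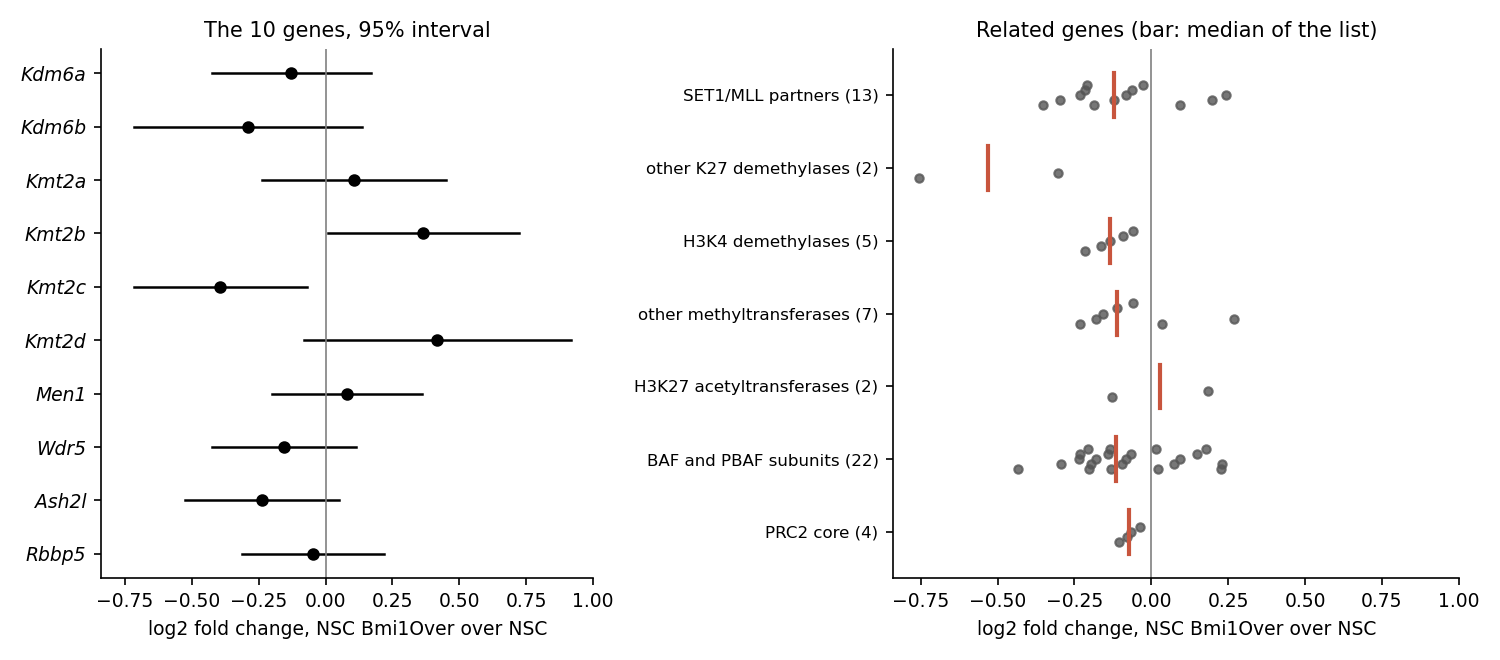
Log2 fold change (libraries labelled NSC Bmi1Over minus NSC), with the 10 genes on the left and the 55 related genes tested on the right (2 cultures per genotype). On the left the lines are the 95% intervals of the edgeR quasi-likelihood fit. The points there run from -0.39 for Kmt2c to 0.42 for Kmt2d, and the intervals of Kmt2b and Kmt2c are the ones that leave out 0 before adjustment. On the right the genes are grouped by list, with a bar at the median of each list.

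Base composition moved with the differences of several members, though not with that of Kdm6b. GC content of the merged exons was 59.0% for Kdm6b, 58.3% for Kmt2d, 58.2% for Kmt2b and 57.6% for Men1. Kmt2d, Kmt2b and Men1 were among the 4 genes with a higher mean in the libraries labelled NSC Bmi1Over, while Kdm6b, with the highest GC content of the 10, had a lower one. It was 45.4% for Kmt2c and 41.9% for Kdm6a, both lower there, and it lay between 46.3% and 51.1% for the other 4. Across 15491 genes tested, Spearman's rho of the log2 fold change with GC content was 0.118. Between the replicates of a single genotype (replicate 2 minus replicate 1) it was 0.119 in NSC and 0.17 in the libraries labelled NSC Bmi1Over. These are descriptions over genes that share the same 4 libraries, and genes are not independent replicates. In bins of equal gene number, the median log2 fold change was -0.06 in the bin of lowest GC content (median 39.4%) and 0.11 in that of the highest (median 59.1%).

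With offsets for GC content and length added to the edgeR fit, a correction chosen after seeing the data, the log2 fold change of Kmt2d became 0.21 (adjusted p = 0.417) and that of Kmt2b 0.18 (adjusted p = 0.381). Kmt2c stood at -0.45 (adjusted p = 0.0887) and Kdm6b at -0.50 (adjusted p = 0.0895). Men1 and Kmt2a changed sign, to -0.08 and -0.0060, in a fit that moved the median of all genes from -0.01 to -0.09. None of the 10 passed the threshold in this fit either. The difference between Kmt2c and its relatives Kmt2b and Kmt2d kept its direction but was smaller.

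**Figure D5:**
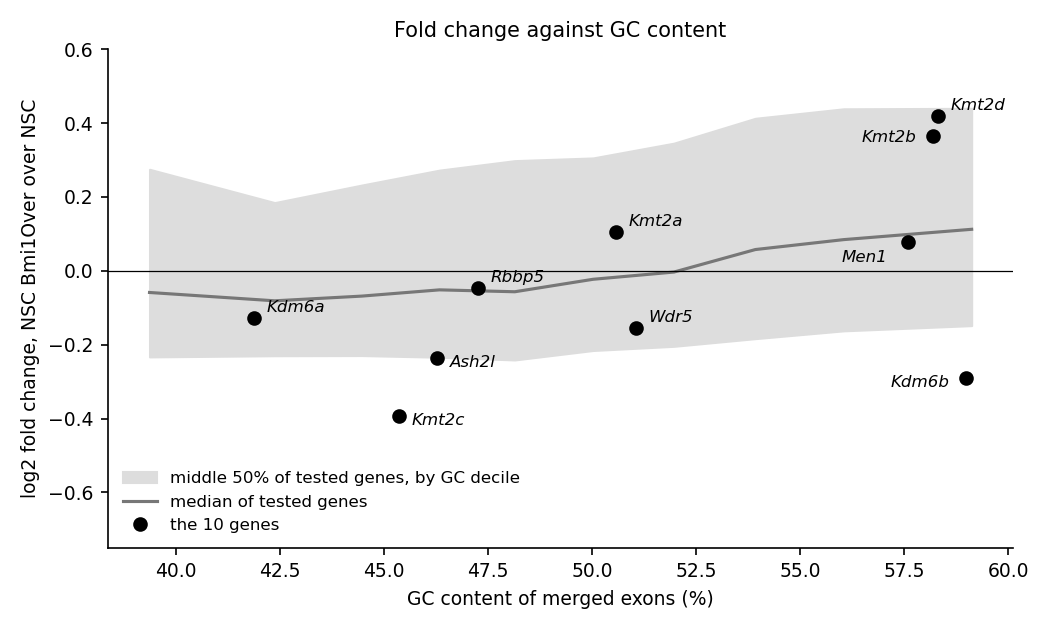
Log2 fold change (libraries labelled NSC Bmi1Over minus NSC) against GC content of the merged exons in percent. Bins of equal gene number over all genes tested are drawn with their medians as a line and their quartiles as a band. The 10 genes are points, without the correction for GC content and length. The line runs from -0.06 in the bin of lowest GC content to 0.11 in that of the highest.

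The other genes of the pathway were taken from lists made by role. Of 58 listed, 55 were tested and 0 passed the threshold by edgeR, beside 2.15% of all genes. By DESeq2 1 passed, beside 9.64% of all genes. At an unadjusted p under 0.05 by edgeR there were 5, beside 24.2% of all genes. The fold change was above 0 for 14 of the 55, beside 7539 of all 15521 genes, and its median was -0.11, beside -0.01. CPM values of the groups did not overlap for 31 of the 55, beside 59% of all genes. Pagr1a, Uty and Kdm5d had too few reads to be tested, and 98.7% of the exon length of Pagr1a is shared with other annotated genes, where reads are not counted for it.

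Among the partners of the SET1 and MLL complexes, 13 of 14 were tested, with 3 higher and a median of -0.12. The highest was Setd1a at 0.24 (adjusted p = 0.362 by edgeR), the catalytic subunit of a SET1 complex whose exons are shared with other annotated genes over 52.3% of their length, and the lowest Ncoa6 at -0.35 (adjusted p = 0.128), which belongs to the Kmt2c and Kmt2d complexes with Kdm6a. Setd1a was at 0.070 without replicate 2 of the libraries labelled NSC Bmi1Over and at 0.10 without replicate 1 of NSC. The other demethylase genes were both lower: Phf8 at -0.30 (adjusted p = 0.197) and Kdm7a, which acts on lysine 9 and lysine 27, at -0.76 (adjusted p = 0.0683). Kdm7a was measured at 52.7 and 35.7 CPM in NSC and at 27.2 and 25.3 CPM in the libraries labelled NSC Bmi1Over, so that both of the latter lay below both NSC cultures. It was the gene that passed by DESeq2 (adjusted p = 0.00668), where 9.64% of all genes did. It passed in 8 of 15 alternatives in all, fits that called from 3.36% to 25.4% of all genes. Among them were library size alone (adjusted p = 0.0332 by edgeR, beside 3.46% of all genes) and the GC content and length correction (adjusted p = 0.0398 by edgeR, beside 3.36%). With any 1 library left out the log2 fold change of Kdm7a lay between -1.01 and -0.45, the latter without replicate 1 of NSC.

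The 5 H3K4 demethylases tested, which remove the mark that KMT2 enzymes place, had log2 fold changes from -0.22 for Kdm5b to -0.06 for Kdm5a, with a median of -0.13. The sign for Kdm5a changed when either of 2 libraries was left out, and Kdm5b was at -0.011 without replicate 1 of NSC and at -0.073 without replicate 1 of the libraries labelled NSC Bmi1Over. Of 7 other methyltransferases of active chromatin, 2 were higher, with Dot1l, the H3K79 enzyme, at 0.27, Nsd2, an H3K36 enzyme, at -0.23 and a median of -0.11. Dot1l was at 0.15 without replicate 1 of NSC and at 0.083 with the GC content and length correction. The acetyltransferases that modify lysine 27 in place of methylation were at 0.18 for Crebbp and -0.13 for Ep300. Crebbp was at -0.060 without replicate 2 and at 0.38 without replicate 1 of the libraries labelled NSC Bmi1Over. With the GC content and length correction it was at 0.066. Of 22 subunits of the BAF and PBAF remodelling complexes, the Trithorax-group antagonists of Polycomb, 8 were higher, from -0.43 for Phf10 (adjusted p = 0.0973 by edgeR) to 0.23 for Smarcd2. Genes on the opposite strand overlap 9.57% of the exon length of Phf10 and 2.85% of that of Kdm7a. Smarcd2 was at 0.076 with the GC content and length correction. The 4 PRC2 core genes lay between -0.10 for Suz12, which was at -0.042 without replicate 1 of NSC, and -0.04 for Ezh1. Of the 68 genes, members and pathway together, the 1 with a promoter H3K27me3 peak was Hcfc1, in the NSC list. Of the protein-coding genes tested, 7.83% had such a peak in that list and 3.32% in the other. At the levels of the 10 members the shares were 3.29% and 1.19%.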

How the data were processed

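Total RNA of 4 neural stem cell cultures was sequenced from TruSeq RNA libraries, a kit that does not mark strand, and H3K27me3 was measured by ChIPSeq. Chromatin of 2 cultures per genotype was immunoprecipitated, and the authors kept 1 library of each after discarding those of lower quality. The authors aligned RNASeq reads with STAR to mm10, and the deposited counts are raw read counts per gene; the unstranded column was used and the 4 summary lines of each file (unmapped, multimapping, no feature, ambiguous) were left out. Of 50686 gene identifiers, 50462 matched GENCODE vM21. Per the methods of the study, ChIPSeq peaks were called with MACS2 as broad regions (stated limits of 2-fold enrichment and a false discovery rate of 0.05). The deposited peak lists give a score, a fold enrichment over background (a ratio) and −log10 p- and q-values for each region. Bowtie2 2.3.4 and Trim Galore are named in the submitters' processing notes. Human and mouse tumour samples of the study were not analysed here.

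Genes were filtered with filterByExpr (minimum count 10), scaled by TMM and compared with the quasi-likelihood F-test of edgeR 4.0.16 in R 4.3.3, with Benjamini-Hochberg adjustment over all 15521 genes and a threshold of 0.05. TMM, the test and the threshold follow the methods of the study, which filtered with NOISeq instead. A self-test on simulated counts with known changes preceded the fit. Reads per library assigned to genes were 29325893 and 24578802 for NSC and 18112100 and 61353076 for the libraries labelled NSC Bmi1Over, or 72.2% and 69.8% against 68.1% and 65.9% of all reads; 3.34% to 3.64% were ambiguous. The edgeR p-values rest on the spread between 2 cultures per genotype, with that of each gene moderated by that of all genes tested. RPKM used merged exon length, and a promoter was 5 kb to either side of any annotated start. CPM values were computed from TMM-scaled library sizes. The 10 genes, the pathway lists and the markers were chosen with earlier results of these data known. The genes named are the 10 members, Bmi1, the highest and lowest of each pathway list with any that passed, and the 3 nearest profiles of each demethylase; Kdm7a, Ncoa6 and the others follow from that rule, while Ezh2, Hcfc1, Sox10, Sox2, Syt1, Tubb3, Dcx, Snap25 and Aldh1l1 were named after their values were seen. Alternatives were DESeq2 1.42.0, other scaling and filters, the summed stranded columns, protein-coding genes alone, thinning to 18112100 reads, a replicate term, each library left out, other peak limits and, after seeing the data, GC content and length offsets.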

Additional observations from a re-analysis of the deposited data

How the results depend on the processing

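The number of genes called over the whole table, 334 with 94.3% of them higher in the libraries labelled NSC Bmi1Over, depended on the fit. It was 1496 by DESeq2 (87% higher), 537 with library size alone (64.4%), 2356 without a filter on low counts (80.3%), 520 with the GC content and length correction (76.7%) and 176 to 2546 with 1 library left out (176 without NSC replicate 1, 230 without NSC Bmi1Over replicate 2, 1461 without NSC replicate 2, 2546 without NSC Bmi1Over replicate 1). With 2 cultures per genotype and replicate numbers that mark nothing shared in the labels, same-numbered libraries had deviations correlated at r = 0.169 over 15521 genes. With the replicate block, 3459 genes were called (22.3% of those tested, 70.3% of them higher), or 3934 (25.4%, 50.1% of them higher) together with the GC content and length correction.

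Of the 10 members, 0 were called under every setting without the block but 1, the range over single libraries left out being 0 to 1 (Kmt2d at 0.70 without NSC Bmi1Over replicate 1, a fit that called 15.6% of all genes). The block called 3 (Kmt2b at 0.36, Kmt2c at -0.39 and Kmt2d at 0.39), and the block with the GC content and length correction called 3 (Kdm6b at -0.49, Kmt2c at -0.45 and Ash2l at -0.30). Both counts stand beside the 22.3% and 25.4% of all genes called in those fits. Kmt2c was the gene called by both. Of the 150 alternative values of the members' fold changes, 137 kept direction and side of the threshold, 7 passed it and 6 changed sign: Kmt2a to -0.043 and Men1 to -0.070 with library size alone, to -0.0060 and -0.082 with the GC content and length correction, and to -0.0039 and -0.082 with the block added. The pathway genes called numbered 1 by DESeq2, 2 with library size alone, 2 without a filter, 3 with the block, 1 with the GC content and length correction and 8 with both, of 55 or 56 tested. In the same order, these fits called 9.64%, 3.46%, 8.25%, 22.3%, 3.36% and 25.4% of all genes. Among the pathway genes, with 1 library left out, Kdm5a ranged from -0.20 to 0.071, Ezh1 from -0.19 to 0.13 and Crebbp from -0.060 to 0.38. The sign of Kdm5a and Ezh1 turned without NSC replicate 1 or NSC Bmi1Over replicate 2, and that of Crebbp without the latter. The changes of sign with library size alone come with a shift of the median of all genes by -0.15, and those with the GC content and length correction with a shift by -0.076; the cause of the others was not tested. No member had a promoter peak at any limit tried.

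The precision is set by 2 cultures per genotype rather than by depth: the fewest reads behind a member's value were 940, for Rbbp5. Differences smaller than the intervals given could not be resolved, and the peak lists have no replicate.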
